A study of Mus musculus with 12 samples.

Results

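A list of 10 genes, named for cholinergic and thalamic regional identity, was followed through hematoma-adjacent brain tissue. It held Chat, Slc18a3, Slc5a7, Lhx8 and Isl1 on the cholinergic side and Gbx2, Tcf7l2, Prox1 and Slc17a6 on the thalamic side. Mab21l1, also in the list, is placed on neither side here. They were picked by symbol from a table of 21956 genes, and all 10 were found in it. Gbx2, Lhx8 and Mab21l1 were the reason for the choice, because they were lower after hemorrhage in knockout mice, so the values of that comparison are described here without a test. The other members were added as genes of the same 2 systems, with earlier results of these data known.

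Each of the 12 libraries came from the brain tissue of 1 mouse, with 3 mice in each of 4 groups named Sham-Fabp4fl_fl, Sham-Fabp4CKO, ICH-Fabp4fl_fl and ICH-Fabp4CKO. All 4 groups carried floxed alleles of Fabp4, a gene for a fatty acid binding protein. In the CKO groups a Cre recombinase driven by Tmem119, a gene of resident microglia, removed Fabp4 after tamoxifen, and whether the fl_fl mice also received tamoxifen is not stated in the sources used here. Intracerebral hemorrhage (ICH) was induced by collagenase in the right striatum and tissue was taken at 48 h, while sham mice had the same operation without collagenase and no time in their labels. The labels give neither strain, age nor sex of these mice.

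Cholinergic neurons make acetylcholine with choline acetyltransferase, load it into vesicles and take choline back up after release. In the forebrain they include the large interneurons of the striatum and the projection neurons of the septum and basal forebrain. These interneurons and projection neurons descend from progenitors of the ventral forebrain that use LIM homeobox factors. Thalamic relay neurons lie behind and medial to the striatum, use the vesicular glutamate transporter VGLUT2, and are specified by another set of homeobox and Wnt-pathway factors.

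Total counts ranged from 15650830 to 22406222 per library. Mitochondrial genes took 7.90% to 11.9% of the counts in 11 libraries and 16.3% in ICH-Fabp4fl_fl mouse 1. Fabp4 had 2, 1 and 2 counts in the Sham-Fabp4fl_fl mice, 0 in each Sham-Fabp4CKO mouse, 46, 63 and 24 in the ICH-Fabp4fl_fl mice, and 5, 3 and 10 in the ICH-Fabp4CKO mice. Y-linked genes had 1 count in ICH-Fabp4CKO mouse 1 and 1302 to 2251 counts in each of the other 11 mice. The sham libraries were unequal in regional genes: 15 further thalamic genes summed to 2143 and 1565 CPM (counts per 1e+06 counts of the library, scaled by edgeR's TMM factors) in Sham-Fabp4fl_fl mice 1 and 2, and to 609 to 900 CPM in the other 4 sham mice. The 8 choroid plexus genes, led by Ttr, summed to 878 to 3266 CPM in Sham-Fabp4fl_fl and to 46.9 to 54.2 CPM in Sham-Fabp4CKO. Striatal projection neuron genes were present in every library, with sums of 15 genes from 1704 CPM in ICH-Fabp4fl_fl mouse 1 to 7936 CPM in Sham-Fabp4CKO mouse 2. Each comparison that uses Sham-Fabp4fl_fl mice 1 and 2 or ICH-Fabp4CKO mouse 1 is therefore followed by values of its leading members without them. ICH-Fabp4CKO mouse 2 also stood apart in its group. Its pan-neuronal genes summed to 5323 CPM, beside 2591 and 1780 CPM in ICH-Fabp4CKO mice 1 and 3. Its cortical excitatory genes summed to 554 CPM, beside 146 and 158 CPM. Fits without this mouse enter the ranges over left-out mice.

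The genes of the acetylcholine cycle came first. Chat and Slc18a3 form one locus, in which the intronless Slc18a3 lies inside Chat on the same strand, and in GENCODE M21 no Chat exon overlaps it. Their start sites and that of Slc5a7 are shown because these 3 genes encode the enzyme and both transporters of one cycle. The sequences are the reference of RefSeq (GRCm38.p6), from 250 bases before to 50 bases after the start, with the homeodomain core TAAT in capitals on either strand (it reads ATTA on the other).

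Chat, chr14:32465860-32466159, minus strand: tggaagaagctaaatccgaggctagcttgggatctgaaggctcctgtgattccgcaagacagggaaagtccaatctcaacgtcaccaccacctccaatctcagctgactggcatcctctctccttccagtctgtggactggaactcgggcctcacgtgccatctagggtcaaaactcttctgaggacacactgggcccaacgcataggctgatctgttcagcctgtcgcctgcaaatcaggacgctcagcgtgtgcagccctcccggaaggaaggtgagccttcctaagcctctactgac
Slc18a3, chr14:32464801-32465100, minus strand: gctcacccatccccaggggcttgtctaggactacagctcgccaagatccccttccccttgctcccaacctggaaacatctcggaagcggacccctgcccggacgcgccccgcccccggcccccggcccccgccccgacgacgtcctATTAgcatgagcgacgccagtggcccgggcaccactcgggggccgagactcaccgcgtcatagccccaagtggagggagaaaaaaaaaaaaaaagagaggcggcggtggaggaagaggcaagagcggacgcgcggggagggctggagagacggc
Slc5a7, chr17:54298985-54299284, minus strand: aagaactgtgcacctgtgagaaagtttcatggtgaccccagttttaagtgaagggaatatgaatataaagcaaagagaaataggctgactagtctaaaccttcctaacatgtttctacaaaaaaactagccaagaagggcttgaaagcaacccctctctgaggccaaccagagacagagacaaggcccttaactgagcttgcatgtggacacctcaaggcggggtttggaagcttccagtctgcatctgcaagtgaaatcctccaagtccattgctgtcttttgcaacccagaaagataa

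The Slc18a3 start lay 1059 bases downstream of the Chat start. The Slc18a3 window held 1 TAAT core and the windows of Chat and Slc5a7 held 0. Of 9 members with a RefSeq window, 5 held the core in at least 1 window. Over all 32851 mouse windows, 58.0% held it. Tcf7l2, Prox1 and Slc17a6 had more than 1 window, so the count by gene and the share by window are unlike measures. The longer site TAATTA, which contains TAAT, stood in 5.29% of all windows.

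Chat (ENSMUSG00000021919), choline acetyltransferase, had 12.4, 16.7 and 24.8 CPM in the Sham-Fabp4fl_fl mice, 35.0, 30.5 and 29.7 in the Sham-Fabp4CKO mice, 11.0, 11.2 and 31.0 in the ICH-Fabp4fl_fl mice, and 14.2, 13.5 and 7.38 in the ICH-Fabp4CKO mice. All 3 Sham-Fabp4CKO mice lay above all Sham-Fabp4fl_fl mice, ICH-Fabp4fl_fl mouse 3 stood at the level of the Sham-Fabp4CKO mice, and the other 5 hemorrhage libraries lay at or below 14.2 CPM. In order of group means, Sham-Fabp4CKO (31.7 ± 2.82, SD, n = 3) was followed by Sham-Fabp4fl_fl (17.9 ± 6.30), ICH-Fabp4fl_fl (17.7 ± 11.5) and ICH-Fabp4CKO (11.7 ± 3.73). Only the first step of that order was without overlap.

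Slc18a3 (ENSMUSG00000100241), the vesicular acetylcholine transporter VAChT, had 5.98, 7.23 and 10.4 CPM in the Sham-Fabp4fl_fl mice, 16.4, 13.3 and 13.9 in the Sham-Fabp4CKO mice, 11.6, 9.29 and 13.1 in the ICH-Fabp4fl_fl mice, and 4.79, 5.01 and 1.53 in the ICH-Fabp4CKO mice. Here the knockout mice stood above the fl_fl mice after sham surgery and below them after hemorrhage, without overlap in either case. The group means were 14.5 ± 1.66, 11.3 ± 1.93, 7.86 ± 2.27 and 3.78 ± 1.95 CPM (SD, n = 3) for Sham-Fabp4CKO, ICH-Fabp4fl_fl, Sham-Fabp4fl_fl and ICH-Fabp4CKO. Of the neighbours in this order, ICH-Fabp4fl_fl and Sham-Fabp4fl_fl overlapped.

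Slc5a7 (ENSMUSG00000023945), the high-affinity choline transporter, had 18.5, 24.9 and 36.3 CPM in the Sham-Fabp4fl_fl mice, 46.8, 40.7 and 44.5 in the Sham-Fabp4CKO mice, 16.1, 20.5 and 43.1 in the ICH-Fabp4fl_fl mice, and 20.2, 23.0 and 12.4 in the ICH-Fabp4CKO mice. As for Chat, ICH-Fabp4fl_fl mouse 3 was the high library among the hemorrhage mice, and it reached the range of the Sham-Fabp4CKO group. Each pair of neighbouring groups in the order of means overlapped.

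Lhx8 (ENSMUSG00000096225), a LIM homeobox factor required for forebrain cholinergic neurons, had 5.54, 6.30 and 14.3 CPM in the Sham-Fabp4fl_fl mice, 16.9, 14.5 and 17.98 in the Sham-Fabp4CKO mice, 3.80, 5.30 and 10.3 in the ICH-Fabp4fl_fl mice, and 2.1985, 3.41 and 2.84 in the ICH-Fabp4CKO mice. The Sham-Fabp4CKO mice were the 3 highest of all 12, narrowly above Sham-Fabp4fl_fl mouse 3, and the ICH-Fabp4CKO mice the 3 lowest. The fl_fl groups lay between them and overlapped each other.

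Isl1 (ENSMUSG00000042258), a LIM homeobox factor of cholinergic interneurons and of some striatal projection neurons, had 9.40, 13.3 and 13.7 CPM in the Sham-Fabp4fl_fl mice, 11.975, 15.0 and 14.6 in the Sham-Fabp4CKO mice, 9.78, 10.9 and 10.6 in the ICH-Fabp4fl_fl mice, and 7.24, 10.8 and 3.34 in the ICH-Fabp4CKO mice. All neighbouring groups in the order of means overlapped, and the lowest value was that of ICH-Fabp4CKO mouse 3.

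**Figure D1:**
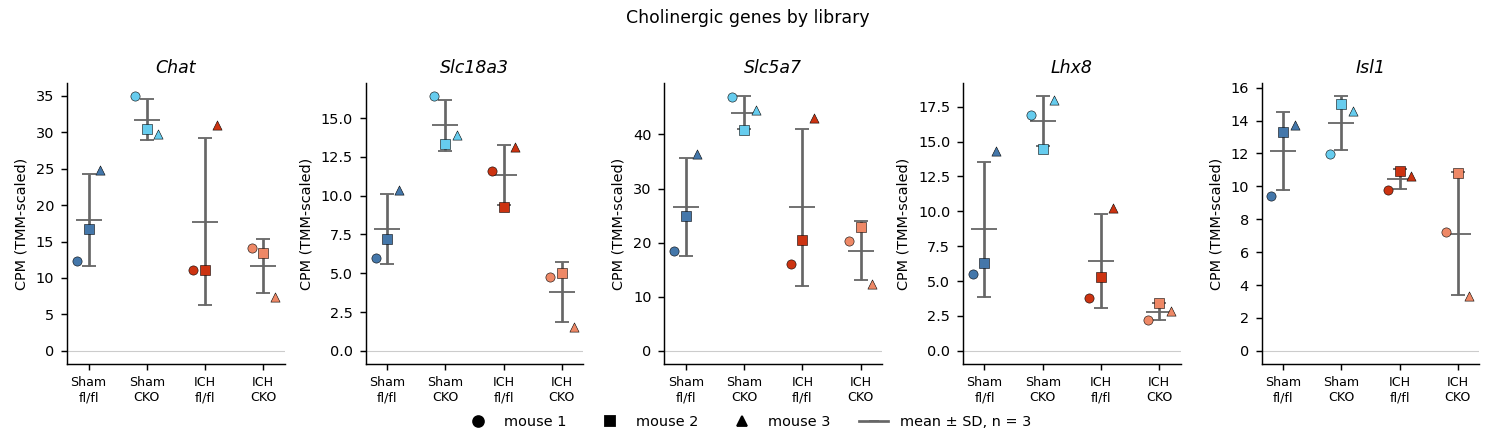
Level of the 5 cholinergic members (y axis, TMM-scaled CPM, a separate scale for each gene) in each of 12 libraries, by group on the x axis. Points are single mice, with the mouse number as the symbol, and bars are the group mean ± SD (n = 3). The Sham-Fabp4CKO points of Chat, Slc18a3, Slc5a7 and Lhx8 lie above all Sham-Fabp4fl_fl points, and ICH-Fabp4fl_fl mouse 3 is high for Chat (31.0 CPM) and Slc5a7 (43.1 CPM).

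On the thalamic side, Gbx2 (ENSMUSG00000034486), a homeobox factor of thalamic development, had 25.3, 12.5 and 4.65 CPM in the Sham-Fabp4fl_fl mice and 7.77, 6.31 and 12.1 in the Sham-Fabp4CKO mice. After hemorrhage it had 0.704, 0.249 and 0.850 CPM in the ICH-Fabp4fl_fl mice and 0.388, 0.320 and 0.492 in the ICH-Fabp4CKO mice, from 10, 4 and 16 counts and from 6, 6 and 9 counts. The lowest sham mouse was 5.47 times the highest hemorrhage mouse, so sham and hemorrhage did not overlap in either genotype, while the 2 genotypes overlapped within each.

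Mab21l1 (ENSMUSG00000056947), a member of the Mab21 family known from eye development, was the scarcest. It had 4.48, 1.70 and 1.498 CPM in the Sham-Fabp4fl_fl mice and 4.85, 3.40 and 3.54 in the Sham-Fabp4CKO mice. After hemorrhage 3, 2 and 7 counts were left in the ICH-Fabp4fl_fl mice and 3, 1 and 1 counts in the ICH-Fabp4CKO mice, or 0.211, 0.125 and 0.372 CPM and 0.194, 0.0533 and 0.0547 CPM. No sham library overlapped a hemorrhage library. Mab21l1 lies inside Nbea on the opposite strand, with 1 annotated Nbea exon overlapping it, and the counting is not stated to use strand, so reads of the 2 genes might be shared. Nbea itself ranged from 44.8 to 244 CPM over the 12 libraries and changed by -1.33 (SE 0.36) on the log2 scale from Sham-Fabp4fl_fl to ICH-Fabp4fl_fl (edgeR adjusted p = 0.0215), beside -3.40 for Mab21l1.

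Slc17a6 (ENSMUSG00000030500) encodes VGLUT2, which fills vesicles with glutamate in thalamic and other subcortical neurons. It had 213, 159 and 42.0 CPM in the Sham-Fabp4fl_fl mice, 64.8, 45.0 and 98.3 in the Sham-Fabp4CKO mice, 4.93, 1.68 and 23.1 in the ICH-Fabp4fl_fl mice, and 18.4, 5.65 and 0.273 in the ICH-Fabp4CKO mice. Every sham mouse lay above every hemorrhage mouse. Within ICH-Fabp4CKO the highest mouse was 67.4 times the lowest, the widest spread of any member within a group.

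Tcf7l2 (ENSMUSG00000024985), a transcription factor of the Wnt pathway found in thalamus and habenula, had 153, 98.9 and 21.8 CPM in the Sham-Fabp4fl_fl mice, 32.9, 27.0 and 43.4 in the Sham-Fabp4CKO mice, 12.5, 10.1 and 21.3 in the ICH-Fabp4fl_fl mice, and 21.2, 11.5 and 11.97 in the ICH-Fabp4CKO mice. Sham-Fabp4fl_fl mice 1 and 2 stood far above the other 4 sham mice. The lowest sham mouse, Sham-Fabp4fl_fl mouse 3, was just 1.03 times the highest hemorrhage mouse, so the absence of overlap was narrow.

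Prox1 (ENSMUSG00000010175), a homeobox factor of dentate granule cells and of parts of the thalamus, had 120, 73.3 and 33.4 CPM in the Sham-Fabp4fl_fl mice, 35.6, 35.7 and 45.0 in the Sham-Fabp4CKO mice, 32.2, 47.0 and 44.3 in the ICH-Fabp4fl_fl mice, and 46.9, 29.8 and 24.2 in the ICH-Fabp4CKO mice. Apart from Sham-Fabp4fl_fl mice 1 and 2, the 10 other libraries lay between 24.2 and 47.0 CPM, and all 4 groups overlapped with their neighbours in the order of means.

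**Figure D2:**
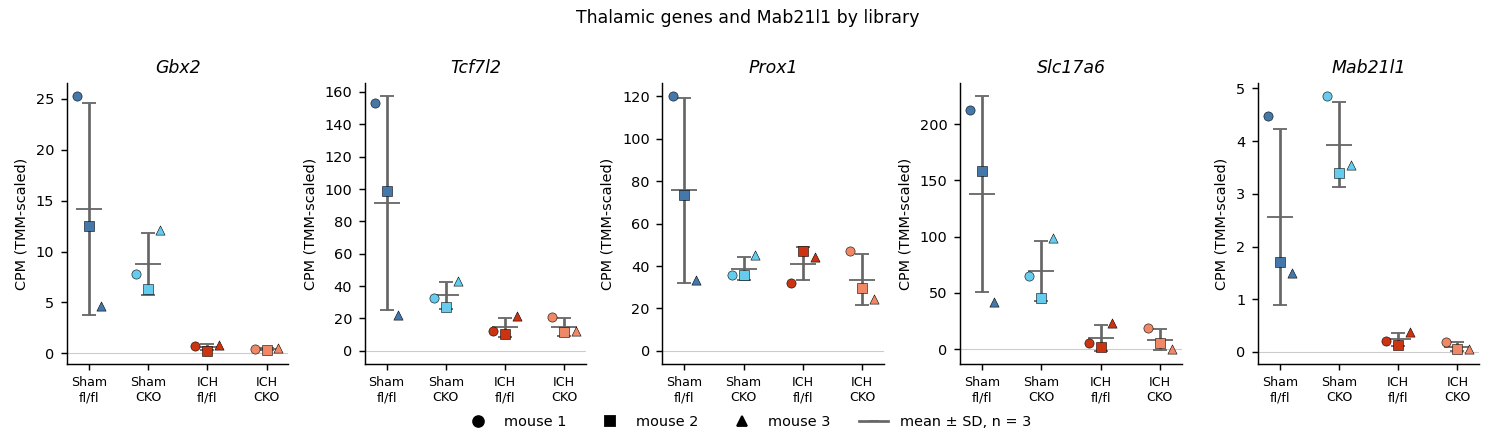
Level of Gbx2, Tcf7l2, Prox1, Slc17a6 and Mab21l1 (y axis, TMM-scaled CPM, a separate scale for each gene) in each of 12 libraries, by group on the x axis. Points are single mice, with the mouse number as the symbol, and bars are the group mean ± SD (n = 3). Sham-Fabp4fl_fl mice 1 and 2 are the 2 highest sham mice for Gbx2, Tcf7l2, Prox1 and Slc17a6, and hemorrhage libraries of Gbx2 and Mab21l1 lie near 0.

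Hemorrhage was first compared with sham surgery in mice with floxed Fabp4 and no knockout. This comparison shares no library with the one that chose the members, but earlier results of these data were known when the list was made. Of the 10 members 4 fell: Gbx2, Slc17a6, Mab21l1 and Tcf7l2. No member rose. Of all 14719 genes tested, 19.3% fell and 26.2% rose by the same test, 45.6% in all. The groups did not overlap for the same 4 members, against 27.4% of all genes that were lower without overlap. Since each library is bulk tissue, fewer cells of a type and less RNA per cell cannot be told apart in any of these values.

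Gbx2 fell most, from 14.1 ± 10.4 to 0.601 ± 0.313 CPM (SD, n = 3), by 4.56 on the log2 scale (SE 0.73, edgeR adjusted p = 0.0029, from the quasi-likelihood F-test in edgeR, corrected by Benjamini-Hochberg over all genes tested). Slc17a6 fell by 3.79 on the log2 scale (SE 0.99, edgeR adjusted p = 0.0188), from 138 ± 87.2 to 9.89 ± 11.5 CPM. Mab21l1 fell by 3.40 (SE 0.65, edgeR adjusted p = 0.00604). From its pooled counts the sham level was 10.7 times the hemorrhage level, with an exact 95% interval of 5.96 to 21.2 that covers counting error only. Tcf7l2 fell by 2.67 (SE 0.66, edgeR adjusted p = 0.0158), from 91.3 ± 66.1 to 14.6 ± 5.87 CPM. Prox1, the fourth thalamic member, had a log2 fold change of -0.91 (SE 0.42, edgeR adjusted p = 0.111).

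The cholinergic members did not pass the test in this comparison. Chat had a log2 fold change of -0.04 (SE 0.47, edgeR adjusted p = 0.956) and Slc5a7 one of -0.02 (SE 0.42, edgeR adjusted p = 0.97). Lhx8 had -0.45 (SE 0.50, edgeR adjusted p = 0.475) and Isl1 -0.26 (SE 0.20, edgeR adjusted p = 0.327). Slc18a3 was the one member with a value above 0, at 0.49 (SE 0.26, edgeR adjusted p = 0.16). The median over the 10 members was -0.68, beside 0.02 over all genes tested.

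These calls leaned on Sham-Fabp4fl_fl mice 1 and 2. Without both, which left mouse 3 as the only sham library and assumes that it varies like the others, 0 of the 10 members passed the edgeR test, while 1637 of all genes did. Gbx2 was then at -3.01 (edgeR adjusted p = 0.0518), Mab21l1 at -2.68 (edgeR adjusted p = 0.093), Slc17a6 at -2.13 (edgeR adjusted p = 0.236), and Tcf7l2 at -0.65 (edgeR adjusted p = 0.35). Gbx2, Mab21l1 and Slc17a6 still stood at less than the level of that lone sham mouse in all 3 hemorrhage mice, whereas Prox1 turned to 0.22. Without ICH-Fabp4fl_fl mouse 1 alone, Slc17a6 had an edgeR adjusted p of 0.052, without ICH-Fabp4fl_fl mouse 2 alone, Tcf7l2 had one of 0.0654, and without Sham-Fabp4fl_fl mouse 3 alone, Prox1 passed at -1.31 (edgeR adjusted p = 0.0162).

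Other cell types moved in the same comparison. Of 10 pan-neuronal genes 9 fell (median -1.16), and their sum was 6070 to 7521 CPM in Sham-Fabp4fl_fl and 2087 to 4308 CPM in ICH-Fabp4fl_fl. When libraries were scaled to these pan-neuronal counts, Gbx2 (-3.37), Slc17a6 (-2.82), Mab21l1 (-2.31) and Tcf7l2 (-1.47) were still lower by the edgeR test, while Slc18a3 (1.70, edgeR adjusted p = 0.0033) and Slc5a7 (1.02, edgeR adjusted p = 0.0322) were higher. Chat (0.99), Isl1 (0.97), Lhx8 (0.56) and Prox1 (0.31) then had positive values that did not pass. Since the pan-neuronal genes themselves fell, this scale moved every member upward, and its values are relative to those genes. The shift of all genes on this scale is not given here, so the higher calls are not read as a rise of the members.

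**Figure D3:**
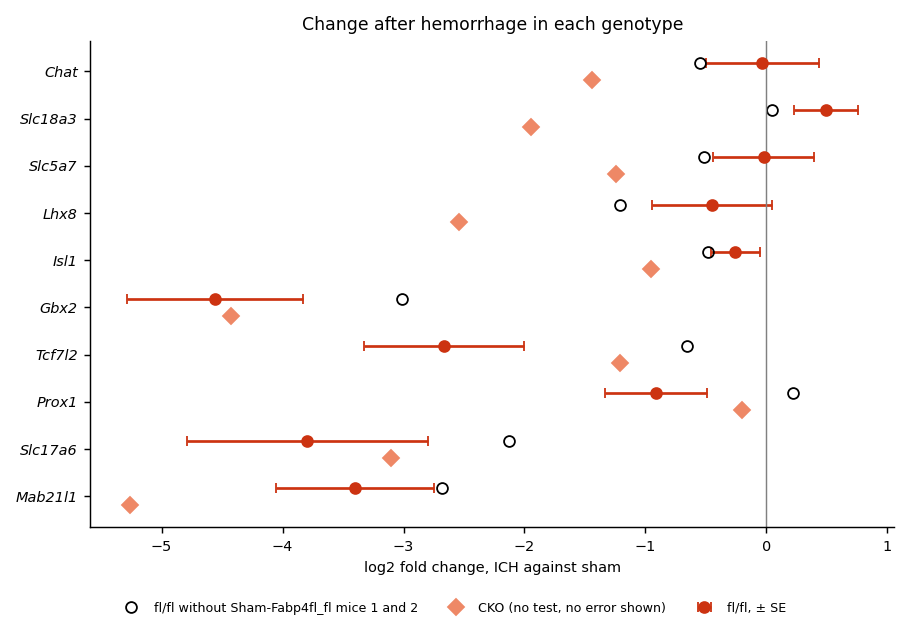
Log2 fold change of each member after hemorrhage against sham surgery (x axis), with genes on the y axis. Filled circles with bars are the fl_fl genotype ± SE, open circles the same without Sham-Fabp4fl_fl mice 1 and 2, and diamonds the CKO genotype, shown without error because it chose the members. Gbx2, Slc17a6 and Mab21l1 lie below -2 in all 3 sets, and the 5 cholinergic members lie further to the left in CKO than in fl_fl.

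Genes of the same 2 systems, listed for their known function but with earlier results of these data known, were read beside the members. In the fl_fl comparison of hemorrhage with sham surgery, 19.3% of all genes tested fell and 26.2% rose. Of 15 other thalamic genes 8 fell in fl_fl mice (median -1.78): Calb2, a calcium-binding protein (-4.92, edgeR adjusted p = 0.000397), the LIM homeobox factor Lhx9 (-4.18, edgeR adjusted p = 0.00908), the axon guidance gene Ntng1 (-3.29), Slitrk6 (-3.08), the T-type calcium channel gene Cacna1g (-2.85), Synpo2 (-1.78), the RNA-editing enzyme gene Adarb1 (-1.78) and Zfhx3 (-0.74). The 7 that did not pass were Tnnt1 (-2.03), Prkcd (-1.55), Ramp3 (-1.55), Plekhg1 (-1.17), Rgs16 (-0.94), Amotl1 (-0.70) and Lef1 (-0.36). The count was 5 without Sham-Fabp4fl_fl mouse 1, without its mouse 2 or without ICH-Fabp4fl_fl mouse 2, 15 without Sham-Fabp4fl_fl mouse 3, and 2 without both of Sham-Fabp4fl_fl mice 1 and 2, when 1 rose. Of 12 other cholinergic genes 3 fell (median -0.53): Zic4, a zinc finger factor of the septum (-2.52, edgeR adjusted p = 0.00106), the muscarinic receptor gene Chrm2 (-1.51) and the acetylcholine esterase gene Ache (-0.77). That count was 5 without ICH-Fabp4fl_fl mouse 3 and 2 without both of Sham-Fabp4fl_fl mice 1 and 2. On the pan-neuronal scale the median of the cholinergic list turned to 0.58, with 1 gene higher and 1 lower, and that of the thalamic list was -0.65, with 5 lower. The share of all genes called on that scale is not given here, so these counts are not read as a result about the lists.

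Lists of neighbouring regions and of other cells were counted in the same fl_fl comparison, in which 19.3% of all genes tested fell and 26.2% rose. Of the habenular genes 3 of 7 tested fell, of the septal and pallidal genes 3 of 5, of the dentate gyrus genes 2 of 5, of the cortical excitatory genes 7 of 9 (median -2.92), and of the choroid plexus genes 8 of 8 (median -5.83), whereas 0 of 15 striatal projection neuron genes passed in either direction (median -0.43). The striatal list had 3 lower without ICH-Fabp4fl_fl mouse 3 (median -1.10), a median of 0.26 without Sham-Fabp4fl_fl mouse 3, and 3 higher on the pan-neuronal scale (median 0.50). Of the glial and vascular lists, 4 of 8 oligodendrocyte genes, 3 of 5 oligodendrocyte precursor genes and 5 of 5 endothelial genes rose, as did 7 of 7 leukocyte and blood genes, while 2 astrocyte genes rose and 1 fell of 5. Without both of Sham-Fabp4fl_fl mice 1 and 2, the choroid plexus count was 7, the habenular and septal counts 2 each, the cortical count 1, the leukocyte count 3 and the astrocyte count 1, and 0 pan-neuronal, striatal, dentate, oligodendrocyte, precursor or endothelial genes passed by edgeR. The part of these shifts in the values of the members was not tested.

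In the knockout genotype, the comparison that chose the members, all 10 had negative log2 fold changes from Sham-Fabp4CKO to ICH-Fabp4CKO. They are given as a description. Mab21l1 stood at -5.26, Gbx2 at -4.43, Slc17a6 at -3.10 and Lhx8 at -2.54. Slc18a3 was at -1.94, Chat at -1.44, Slc5a7 at -1.25, Tcf7l2 at -1.21, Isl1 at -0.96 and Prox1 at -0.20. The groups did not overlap for 9 members, all except Prox1, and since this comparison chose the members nothing is read from that count (28.9% of all 14737 genes were lower without overlap and 11.1% fell by the edgeR test).

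The margins between the groups differed among these 9. The lowest sham mouse was 17.5 times the highest hemorrhage mouse for Mab21l1, 12.8 times for Gbx2 and 4.24 times for Lhx8. It was 2.65 times for Slc18a3, 2.44 times for Slc17a6, 2.10 times for Chat and 1.77 times for Slc5a7. Tcf7l2 at 1.27 and Isl1 at 1.11 were close to touching. For Mab21l1, 258 counts in the 3 sham mice stood against 5 counts in the 3 hemorrhage mice. From these pooled counts the sham level was 41.2 times the hemorrhage level, with an exact 95% interval of 17.4 to 128. That interval covers counting error only and overlaps the one of Gbx2 (14.1 to 35.5), so the order of the 2 genes is not settled. Without ICH-Fabp4CKO mouse 1, the library with 1 Y-linked count, the log2 fold changes were -6.04 for Mab21l1, -4.56 for Slc17a6, -4.42 for Gbx2 and -2.40 for Lhx8. Over the 6 fits that each left out 1 mouse, ICH-Fabp4CKO mouse 2 among them, Mab21l1 ranged from -6.04 to -4.97 and Slc17a6 from -4.56 to -2.56. Gbx2 ranged from -4.64 to -4.12 and Lhx8 from -2.69 to -2.40.

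The pan-neuronal genes had a median of -1.10 in the knockout comparison, and scaling to them moved every member upward here too. The values below are therefore relative to those genes, and their signs are not read as a split of the members. Mab21l1 (-4.12), Gbx2 (-3.12), Slc17a6 (-1.90), Lhx8 (-1.27) and Slc18a3 (-0.84) stayed negative, Chat (-0.23) and Slc5a7 (-0.05) came close to 0, and Isl1 (0.11), Tcf7l2 (0.14) and Prox1 (1.10) turned positive. The pan-neuronal sum ranged from 6624 to 6771 CPM in Sham-Fabp4CKO and from 1780 to 5323 CPM in ICH-Fabp4CKO.

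Of the 12 other cholinergic genes all 12 fell in the knockout comparison (median -1.81), against 11.1% of all genes. This list was made with earlier results of these libraries known, so it is not independent support for the members. The homeobox gene Gbx1 was at -2.96 (edgeR adjusted p = 0.00767), the neurotrophin receptor gene Ngfr at -2.39 (edgeR adjusted p = 0.017), Lhx6 at -2.11 (edgeR adjusted p = 0.014) and Nkx2-1 at -1.90 (edgeR adjusted p = 0.0269). Ache (-1.98), Zic4 (-1.92), Ecel1 (-1.62), the vesicle protein gene Slc10a4 (-1.59), Tacr1 (-1.49), Chrm2 (-1.44) and Slc17a8 (-1.18) also fell. The count depended on single libraries, with 1 called without Sham-Fabp4CKO mouse 1 or mouse 3, 2 without its mouse 2, and 3 without ICH-Fabp4CKO mouse 1, although the median stayed between -2.28 and -1.54 whichever mouse was left out. On the pan-neuronal scale 3 of the 12 fell. The 11.1% above belongs to the TMM scale, and the share of all genes that fell on the pan-neuronal scale is not given here. Counts on that scale are therefore not read as a result about a list. Of the 15 other thalamic genes 6 fell (median -0.84), among them Calb2 (-4.12) and Lhx9 (-4.04), while on the pan-neuronal scale 3 fell and 3 rose (median 0.45). The count of 6 was 0 without any 1 of the Sham-Fabp4CKO mice, 2 without ICH-Fabp4CKO mouse 1 and 3 without its mouse 3. The 15 striatal genes all had values below 0 (median -1.07), with a median of 0.03 on the pan-neuronal scale.

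The genotypes were then compared directly. After hemorrhage, with ICH-Fabp4CKO set against ICH-Fabp4fl_fl, 0 of the 7 members open to a test passed by edgeR, as did 0% of all 14600 genes. At an unadjusted p under 0.05 there were 1 of the 7, Slc18a3, and 12.2% of all genes, and DESeq2 called 578 genes. Slc18a3 had the largest difference, with a log2 fold change of -1.54 (SE 0.46, edgeR adjusted p = 0.339), and DESeq2 called it (adjusted p = 0.0403) as the only one of the 7. Slc17a6 had a value of -0.28 with an SE of 1.34 (edgeR adjusted p = 0.954), and Chat (-0.57), Isl1 (-0.50), Slc5a7 (-0.48), Prox1 (-0.24) and Tcf7l2 (0.07) had edgeR adjusted p from 0.65 to 0.961. Lhx8, given without a test, was at -1.16. Gbx2 and Mab21l1 were under the count filter in these 6 libraries, and neither their level nor a difference could be judged at this depth. Slc18a3 was lower in the knockout without overlap, 1 of the 7 against 11.5% of all genes, as was Lhx8, which was chosen on these knockout libraries and is not counted. The other 8 members overlapped. Without ICH-Fabp4CKO mouse 1, Slc18a3 was at -1.74, Slc17a6 at -1.72 and Chat at -0.73, Tcf7l2 turned to -0.27, and 0 of the 7 passed.

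After sham surgery, with Sham-Fabp4CKO set against Sham-Fabp4fl_fl, 0 of the 7 members open to a test passed by edgeR, against 0.111% of all 14395 genes. At an unadjusted p under 0.05 there were 5 of the 7 and 10.2% of all genes. The acetylcholine cycle genes leaned upward, with Slc18a3 at 0.90 (SE 0.21, edgeR adjusted p = 0.341, DESeq2 adjusted p = 0.0216), Chat at 0.83 (SE 0.23, edgeR adjusted p = 0.423) and Slc5a7 at 0.74 (SE 0.22, edgeR adjusted p = 0.448). Tcf7l2 (-1.39), Slc17a6 (-0.98) and Prox1 (-0.95) leaned downward with edgeR adjusted p of 0.484, 0.528 and 0.484, and Isl1 was at 0.20. Given without a test, Lhx8 was at 0.93, Mab21l1 at 0.62 and Gbx2 at -0.68. Chat, Slc18a3 and Slc5a7 were higher in all 3 knockout mice than in any fl_fl mouse, 3 of the 7 against 5.97% of all genes. Lhx8 was too, but it was chosen on these knockout libraries and is not counted.

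This contrast too turned on which Sham-Fabp4fl_fl mice were in it. Without mouse 3, 6 of the 7 passed by edgeR (all except Isl1), along with 2862 of all genes. Without mice 1 and 2 none did, Tcf7l2 (0.66), Slc17a6 (0.73), Prox1 (0.22) and, untested, Gbx2 (0.91) turned upward, and Chat (0.36), Slc18a3 (0.49) and Lhx8 (0.20) came nearer to 0. The 12 other cholinergic genes all had values above 0 (median 0.64) and the 15 other thalamic genes all had values below 0 (median -1.29), and 0 of either list passed. Without mice 1 and 2 these medians were 0.24 and 0.38.

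The sham mice fell into similar orders within each set of genes, apart from Isl1. For Gbx2, Tcf7l2, Slc17a6 and Prox1, Sham-Fabp4fl_fl mouse 1 was highest, its mouse 2 second, Sham-Fabp4CKO mouse 3 next, and Sham-Fabp4fl_fl mouse 3 lowest. For Chat, Slc18a3, Slc5a7 and Lhx8, the 3 Sham-Fabp4CKO mice came first, in an order that differed between the genes, followed by Sham-Fabp4fl_fl mice 3, 2 and 1. Sham-Fabp4fl_fl mice 1 and 2 were the 2 highest sham mice for 13 of the 15 other thalamic genes, and the 2 lowest for 8 of the 12 other cholinergic and 14 of the 15 striatal genes. The summed thalamic members were 511, 343 and 102 CPM in the Sham-Fabp4fl_fl mice and 141, 114 and 199 in the Sham-Fabp4CKO mice, and the summed cholinergic members were 51.8, 68.4 and 99.5 and then 127, 114 and 121. The labels do not say where each block of tissue was cut, so genotype and dissected region cannot be told apart in these sums. Among the hemorrhage libraries, ICH-Fabp4fl_fl mouse 3 was the highest for 8 of the 10 members and for 9 of the 15 striatal genes.

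**Figure D4:**
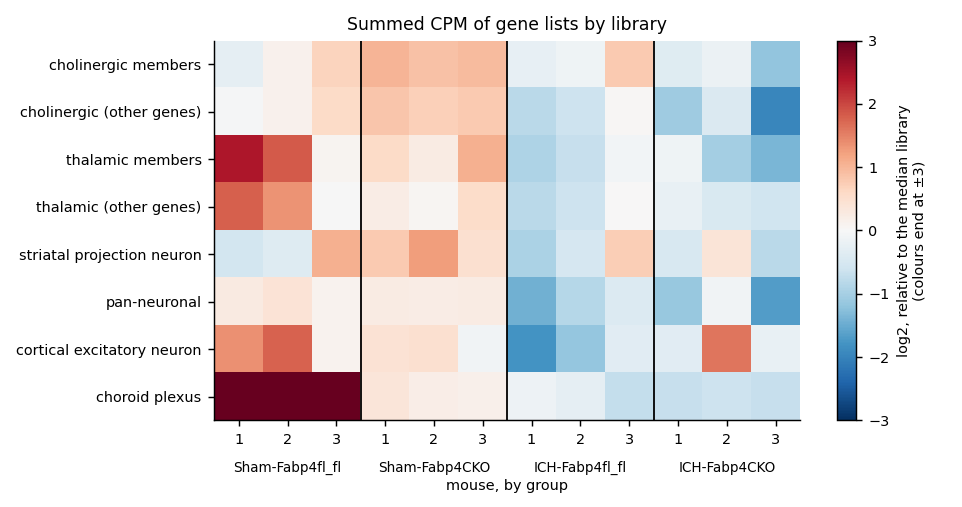
Summed CPM of the 2 sets of members and 6 other gene lists (y axis) in each of 12 libraries (x axis, single mice by group), drawn as color on a log2 scale relative to the median library of each list, with colors ending at ±3. Thalamic sums are highest in Sham-Fabp4fl_fl mice 1 and 2 (511 and 343 CPM for the members), where striatal sums are the 2 lowest among sham mice (2242 and 2541 CPM).

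The difference between the 2 hemorrhage effects was tested as an interaction over all 12 libraries. Of the 7 members open to a test, 0 passed by edgeR, against 0.0199% of all 15089 genes, and at an unadjusted p under 0.05 there were 3 of the 7 (Slc18a3, Chat and Slc5a7) and 9.94% of all genes. Slc18a3 had the largest difference, -2.48 on the log2 scale (SE 0.52, edgeR adjusted p = 0.185). DESeq2 called it (adjusted p = 0.00138), and edgeR did without ICH-Fabp4CKO mouse 2 (adjusted p = 0.034). Chat (-1.43) and Slc5a7 (-1.25) had an edgeR adjusted p of 0.444 each, Isl1 was at -0.74, and Tcf7l2 (1.43), Slc17a6 (0.68) and Prox1 (0.67) were positive with edgeR adjusted p from 0.578 to 0.919. Untested values were -2.11 for Lhx8, -1.88 for Mab21l1 and 0.10 for Gbx2. Of the other cholinergic genes 10 of 12 lay below 0 and of the other thalamic genes 15 of 15 above 0, with 0 of either called. The Sham-Fabp4fl_fl libraries that enter this test are the unequal ones above: without mice 1 and 2, Tcf7l2 was at -0.64, Slc17a6 at -1.06 and Prox1 at -0.51, the median of the other thalamic genes was -0.66, and that of the other cholinergic genes was -0.72. Slc18a3 was then at -2.07 (edgeR adjusted p = 0.651), Chat at -0.97, Slc5a7 at -0.81 and, untested, Lhx8 at -1.40. Without ICH-Fabp4CKO mouse 1, Slc18a3 was at -2.66 (edgeR adjusted p = 0.244), Lhx8 at -1.96 and Mab21l1 at -2.64, and Slc17a6 turned to -0.77. None of the 7 passed in either fit.

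Within groups, some members of one side varied together. After the group means were subtracted, log2 CPM of Chat and Slc5a7 correlated over the 12 libraries at r = 0.97, Slc5a7 and Lhx8 at 0.82, Chat and Lhx8 at 0.74 and Chat and Slc18a3 at 0.73. On the thalamic side Tcf7l2 correlated with Prox1 at 0.88 and with Gbx2 at 0.87, while Lhx8 stood at 0.33 with Slc18a3 and 0.23 with Isl1. Slc17a6 crossed the sides, with 0.64 to Slc18a3 and 0.55 to Chat beside 0.65 to Tcf7l2 and 0.44 to Gbx2. Between the sides the lowest value was -0.51 for Lhx8 and Prox1. These values are descriptions, since the points come from 4 small groups and share the scaling of their libraries.

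**Figure D5:**
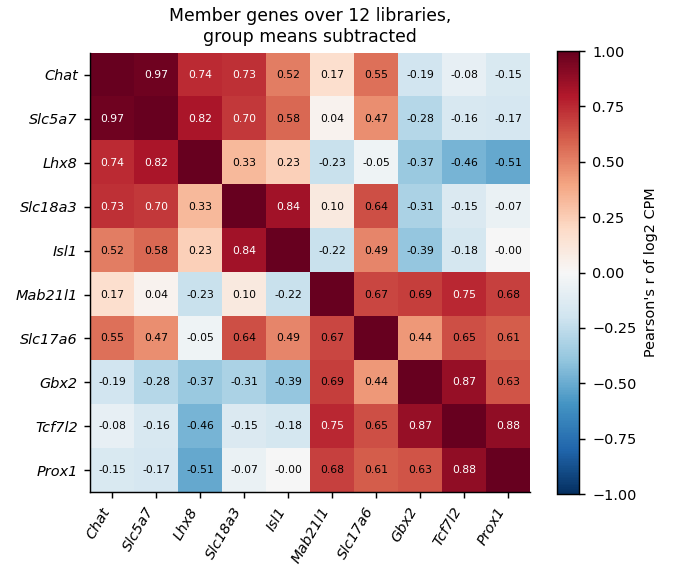
Pearson r between members over 12 libraries (both axes list the 10 genes, color and number give r) for log2 CPM with the group means subtracted. The highest pair is Chat and Slc5a7 (0.97), and Tcf7l2 stands at 0.87 with Gbx2 and at 0.88 with Prox1, while Slc17a6 has positive values with genes of both sides.

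Among 15089 genes, those most like each member were named by the same measure. For Chat they were Htr1d (0.97), Slc5a7 (0.97) and Rab3ip (0.94), for Slc5a7 Chat, Mzt1 and Neto2, for Slc18a3 Mrpl35, Tmem267 and Pcdhb7, for Lhx8 Fig4, St8sia2 and Tle4, and for Isl1 Zrsr2, Th and 9330159F19Rik. For Gbx2 they were the thalamic kinase gene Prkcd (0.95), Styxl2 and Appl2, for Tcf7l2 Rab37 (0.98), Clybl and Ppp1r3a, for Prox1 Osbpl5, Aldh1a1 and Ifit3b, for Slc17a6 the homeobox gene Shox2 (0.94), Uqcrfs1 and Gm14418, and for Mab21l1 Ndufs8 (0.89), Cox6a2 and Commd5. With group means kept, Slc5a7 was again the gene most like Chat (0.99), Gbx1 was the one most like Lhx8 (0.97), Synpo2 the one most like Tcf7l2 (0.97), and Nhlh2 the one most like Gbx2 (0.96). With a prior count of 0.5 the first 3 of these held and Leo1 (0.96) took the place of Nhlh2. With group means subtracted, that prior count put Gabre first for Slc18a3 and Appl2 first for Gbx2, and changed a gene of lower rank for Slc18a3, Tcf7l2, Slc17a6 and Mab21l1.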

How the data were processed

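The members and the gene lists were chosen with earlier results of these data known. Poly(A) RNA of 12 mouse brain samples was sequenced on an Illumina NovaSeq by the authors. They deposited estimated counts per gene, neither normalized nor filtered, in which 7.36% to 8.69% of a library's values were not whole, and which were rounded here to whole numbers. The submitters' processing notes name Bowtie2 2.2.8, HISAT2, StringTie 1.3.1 and DESeq2. The genome build and the use of strand are not given in the sources used here, so coordinates come from RefSeq (GRCm38.p6) alone, and gene neighbours from GENCODE M21. All sample columns were used, and no library was a copy of another in its own group, the only pairs compared.

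Groups were taken from the sample titles. Each comparison was fitted in R 4.3.3 with edgeR 4.0.16 (TMM, filterByExpr set to 10 counts and a total of 15, quasi-likelihood test, Benjamini-Hochberg adjustment over all genes tested, threshold 0.05) on its 6 libraries, or on all 12 for the interaction. The notes name DESeq2 without its role or settings, so it was run as an alternative. Estimated counts cover 15650830 to 22406222 per library, and intervals on counts cover counting error only. CPM are counts per 1e+06 counts of TMM-scaled library size, and a group is said not to overlap when all of its libraries lie on one side of the other group. Correlations used log2 CPM with a prior count of 2. The named genes are the 10 members, the other cholinergic and thalamic genes (1 of which is counted but not reported here by itself), Fabp4, and the 3 genes most like each member. Nbea was named after its values were seen. In all, 14 context lists with 118 genes were counted. Alternatives were RLE factors, total counts, DESeq2 1.42.0, no filter or 10 counts in every library, all 12 libraries in 1 fit, the replicate number as a block, library sizes from pan-neuronal counts, leaving out each library in turn, and a prior count of 0.5. The fits without both Sham-Fabp4fl_fl mice 1 and 2 were added after seeing the data. The fitting code was tested on simulated data. Figures were drawn with matplotlib 3.10.9 in Python 3.11.15.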

Additional observations from a re-analysis of the deposited data

Results flagged for a closer look

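For 2 members the genotype difference had opposite directions after hemorrhage and after sham surgery in every mouse: the knockout mice lay above all fl_fl mice after sham surgery and below all of them after hemorrhage. For Slc18a3 the difference between the 2 genotype effects was -2.48 on the log2 scale. It did not pass edgeR's quasi-likelihood test of the interaction (adjusted p = 0.185) and passed with DESeq2 (adjusted p = 0.00138). For Lhx8 it was -2.11, and this difference was not tested, because Lhx8 was among the genes that chose the list. That choice favors high Sham-Fabp4CKO and low ICH-Fabp4CKO values, so nothing is read from the crossing of Lhx8. Its margins were narrow. Sham-Fabp4CKO mouse 2 had 14.464 CPM against 14.305 in Sham-Fabp4fl_fl mouse 3, and ICH-Fabp4CKO mouse 2 had 3.41 against 3.80 in ICH-Fabp4fl_fl mouse 1.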

How the results depend on the processing

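Limits come first. With 3 mice a group, the count of all genes called moved widely when 1 mouse was left out, Gbx2 and Mab21l1 were at 1 to 16 counts after hemorrhage, and where an arm was left with 1 library that library was assumed to vary like the others. For results that changed, the cause was not tested unless the setting itself removes genes or mice.

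For ICH-Fabp4fl_fl against Sham-Fabp4fl_fl, the 4 members called became 2 with at least 10 counts required in every library, which removes Gbx2 and Mab21l1, and 0 without both of Sham-Fabp4fl_fl mice 1 and 2 (1637 genes in all, Prox1 0.22). Slc5a7 was at 0.0038 with all 12 libraries in one fit. On pan-neuronal library sizes, log2 fold changes were Chat 0.99, Slc5a7 1.02, Lhx8 0.56, Isl1 0.97 and Prox1 0.31. Leaving out each mouse gave 4181 to 8165 genes, 3 to 5 members, -0.75 to 0.23 for Chat, -0.60 to 0.23 for Slc5a7 and -0.99 to 0.0606 for Lhx8. For ICH-Fabp4CKO against Sham-Fabp4CKO, 8780 genes were called on pan-neuronal library sizes and 629 (without Sham-Fabp4CKO mouse 3) to 10099 (without ICH-Fabp4CKO mouse 2) with 1 mouse left out.

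For ICH-Fabp4CKO against ICH-Fabp4fl_fl, 578 genes and 1 member were called by DESeq2, 362 genes with all 12 libraries in one fit, and 0 to 2 genes with 1 mouse left out, over which Chat ranged from -0.84 to 0.11, Slc17a6 from -1.72 to 1.32, Slc5a7 from -0.76 to 0.0557 and Tcf7l2 from -0.27 to 0.43. Slc17a6 was at 0.0059 on pan-neuronal library sizes. For Sham-Fabp4CKO against Sham-Fabp4fl_fl, DESeq2 called 150 genes and 1 member, the stricter filter left 2 genes, and leaving out 1 mouse gave 0 to 2862 genes and 0 to 6 members. Without both Sham-Fabp4fl_fl mice 38 genes were called, with Tcf7l2 at 0.66, Prox1 at 0.22 and Slc17a6 at 0.73. For the interaction, DESeq2 called 266 genes and 1 member, pan-neuronal library sizes 0 genes, and leaving out 1 mouse 0 to 371 genes (371 without ICH-Fabp4CKO mouse 2) and 0 to 1 members, with Slc17a6 from -0.77 to 2.28. Without both Sham-Fabp4fl_fl mice, Tcf7l2 was at -0.64, Prox1 at -0.51 and Slc17a6 at -1.06.

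The replicate numbers did not pair the mice, since deviations of same-numbered libraries correlated at a mean of 0.115 (lowest 0.0231) in the fl_fl hemorrhage comparison and at -0.0055, -0.144 and -0.0674 in the others. With the replicate block, 7262 genes and 4 members were called for ICH-Fabp4fl_fl against Sham-Fabp4fl_fl, 3681 genes for the knockout hemorrhage comparison, 0 between the hemorrhage groups (Slc17a6 0.26), 11 between the sham groups and 1 for the interaction. With the block, 6 of 15 striatal genes fell in the fl_fl hemorrhage comparison, and 2 of the 15 other thalamic genes fell and 1 rose in the knockout one.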
